A study of Mus musculus with 8 samples.

Results

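Replacement of histones by protamines was followed here through 10 genes chosen by name: the protamine genes Prm1, Prm2 and Prm3, the transition protein genes Tnp1 and Tnp2, the testis linker histone genes Hils1, H1f7 (listed on the array as H1fnt) and H1f6 (Hist1h1t), the testis core histone gene H2bc1 (Hist1h2ba), and the HMG box gene Hmgb4. Of these, 9 genes had 13 probe sets among the 45037 tested, and H2bc1 had no probe set annotated to it. The data are 8 Affymetrix Mouse Genome 430 2.0 arrays, 2 for each of 4 groups: round spermatids and late spermatocytes of Hr6b-/- male mice (knockout), and the same cell types of Hr6b+/+ males (wild type), all aged 4 to 5 weeks, on an FVB background and without treatment. HR6B, encoded by Ube2b, is a ubiquitin-conjugating enzyme, and the mutation is carried in all cells of the knockout mice. Cells were separated by sedimentation and a density gradient to a stated purity above 80%, and whether an array holds 1 mouse or a pool is not given in the sources used here. The p-values therefore reflect how far these samples spread, which may be technical.

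In round spermatids the genes for the proteins that will compact the sperm nucleus are transcribed strongly, and the mRNAs of several are stored for translation in elongating spermatids. Histones are loosened by testis variants and acetylation, transition proteins occupy the DNA for a short time, and protamines, which are rich in arginine, take their place. CREM, a transcription factor of round spermatids, activates several of these genes through elements related to the cyclic AMP response element.

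Transcripts of 8 of these genes rose in knockout spermatocytes. For 6 of them, leaving out Hils1 and H1f7, the 100 bases before the annotated start are shown. They are RefSeq sequences of build GRCm38.p6, all on the minus strand and written 5′ to 3′ in the direction of the gene, at chr16:10796824-10796923 for Prm1, chr1:73015900-73015999 for Tnp1, chr16:10790915-10791014 for Prm3, chr4:128260896-128260995 for Hmgb4, chr16:10792106-10792205 for Prm2, chr16:10788656-10788755 for Tnp2. Capitals mark TGACNTCA, a relaxed form of the cyclic AMP response element, in the first 4 sequences and TATAAA in Prm2, each on either strand.
Prm1: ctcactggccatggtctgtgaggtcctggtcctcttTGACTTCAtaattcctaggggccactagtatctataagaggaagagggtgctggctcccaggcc
Tnp1: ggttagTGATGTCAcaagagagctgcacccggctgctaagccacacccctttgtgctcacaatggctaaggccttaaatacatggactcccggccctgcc
Prm3: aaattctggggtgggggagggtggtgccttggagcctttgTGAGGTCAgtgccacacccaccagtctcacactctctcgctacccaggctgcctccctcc
Hmgb4: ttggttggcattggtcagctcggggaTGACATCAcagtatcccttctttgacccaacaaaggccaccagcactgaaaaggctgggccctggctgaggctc
Prm2: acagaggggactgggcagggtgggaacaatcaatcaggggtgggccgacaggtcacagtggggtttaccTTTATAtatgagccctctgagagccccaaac
Tnp2: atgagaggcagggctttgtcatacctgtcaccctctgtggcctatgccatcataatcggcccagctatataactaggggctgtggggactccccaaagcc
TGACNTCA, searched on both strands from 250 bases before to 50 after the start, was present in 5 of the 10 genes (the 4 above and Hils1, where it spans the start) and in 8.83% of 32851 mouse promoters of the same length. The perfect palindrome TGACGTCA, which TGACNTCA includes, was in 0 of 10 and in 1.79% of promoters. TATAAA was in 2 of 10, Prm2 and H2bc1, and in 13.6% of promoters. The motifs were chosen after the sequences had been seen, and a match describes letters only. Prm1, Prm2, Prm3 and Tnp2 lie side by side on chromosome 16.

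Signals are given on the linear scale of the RMA values, in arbitrary units that compare arrays for 1 probe set but not different probe sets. The probe set with the highest mean stands for each gene. Calls were made with limma, fitted to all 8 arrays, at a threshold of 0.05 on the adjusted p. Between 33.2% and 35.4% of probe sets reached a signal of 100 per array, and the arrays of a group correlated at r of 0.995 to 0.997. The brightest Ube2b probe set had signals of 951 and 1061 in knockout spermatids, against 4600 and 4612 in wild type spermatids, and 833 and 824 in knockout spermatocytes, against 2855 and 3349 in wild type spermatocytes.

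The protamine genes were among the brightest probe sets of the spermatid arrays. Prm1 had signals of 32476 and 33039 in knockout spermatids, 29367 and 27752 in wild type spermatids, 10539 and 7739 in knockout spermatocytes, and 2935 and 1955 in wild type spermatocytes. Prm2, whose product is made as a precursor and then cleaved, had 28302 and 27900 in knockout spermatids, 20315 and 21659 in wild type spermatids, 6593 and 4538 in knockout spermatocytes, and 1413 and 844 in wild type spermatocytes. For both genes the 4 groups did not overlap, and knockout was above wild type in each cell type. On the log2 scale the gap was wide in spermatocytes and narrow in spermatids. Prm3, whose product is acidic and not arginine-rich, had 11333 and 11679 in knockout spermatids, against 8224 and 8411 in wild type spermatids, and 773 and 532 in knockout spermatocytes, against 245 and 167 in wild type spermatocytes.

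The transition protein genes had the same order of groups. Tnp1 had signals of 30827 and 31225 in knockout spermatids, 27205 and 26421 in wild type spermatids, 7475 and 5363 in knockout spermatocytes, and 1813 and 1053 in wild type spermatocytes. Tnp2 had 23170 and 26137 in knockout spermatids, 17735 and 18188 in wild type spermatids, 3650 and 2246 in knockout spermatocytes, and 727 and 393 in wild type spermatocytes. Both genes were thus lowest in wild type spermatocytes and highest in knockout spermatids, with no overlap between groups.

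Linker histones bind the DNA between nucleosomes. Hils1, a linker histone-like protein of spermatids, had signals of 18583 and 19119 in knockout spermatids, 16326 and 16651 in wild type spermatids, 1190 and 1074 in knockout spermatocytes, and 576 and 360 in wild type spermatocytes. H1f7, which is needed for condensation of the spermatid nucleus, had 12099 and 13658 in knockout spermatids, 9037 and 9593 in wild type spermatids, 1031 and 650 in knockout spermatocytes, and 291 and 173 in wild type spermatocytes. Both had their groups in the same order as the protamine genes. H1f6, the linker histone H1t that is known from spermatocytes, stayed dim, with 194 and 186 in knockout spermatids, 158 and 162 in wild type spermatids, 127 and 97.2 in knockout spermatocytes, and 80.2 and 78.4 in wild type spermatocytes. Its signal was below 100 on 3 of 8 arrays and was higher in spermatids than in spermatocytes. H1f6 had only 1 probe set, and how well it reports the H1t transcript was not tested. Hmgb4, an HMG box protein of germ cells, had 17256 and 18142 in knockout spermatids, 13739 and 14026 in wild type spermatids, 1342 and 1011 in knockout spermatocytes, and 368 and 234 in wild type spermatocytes.

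**Figure D1:**
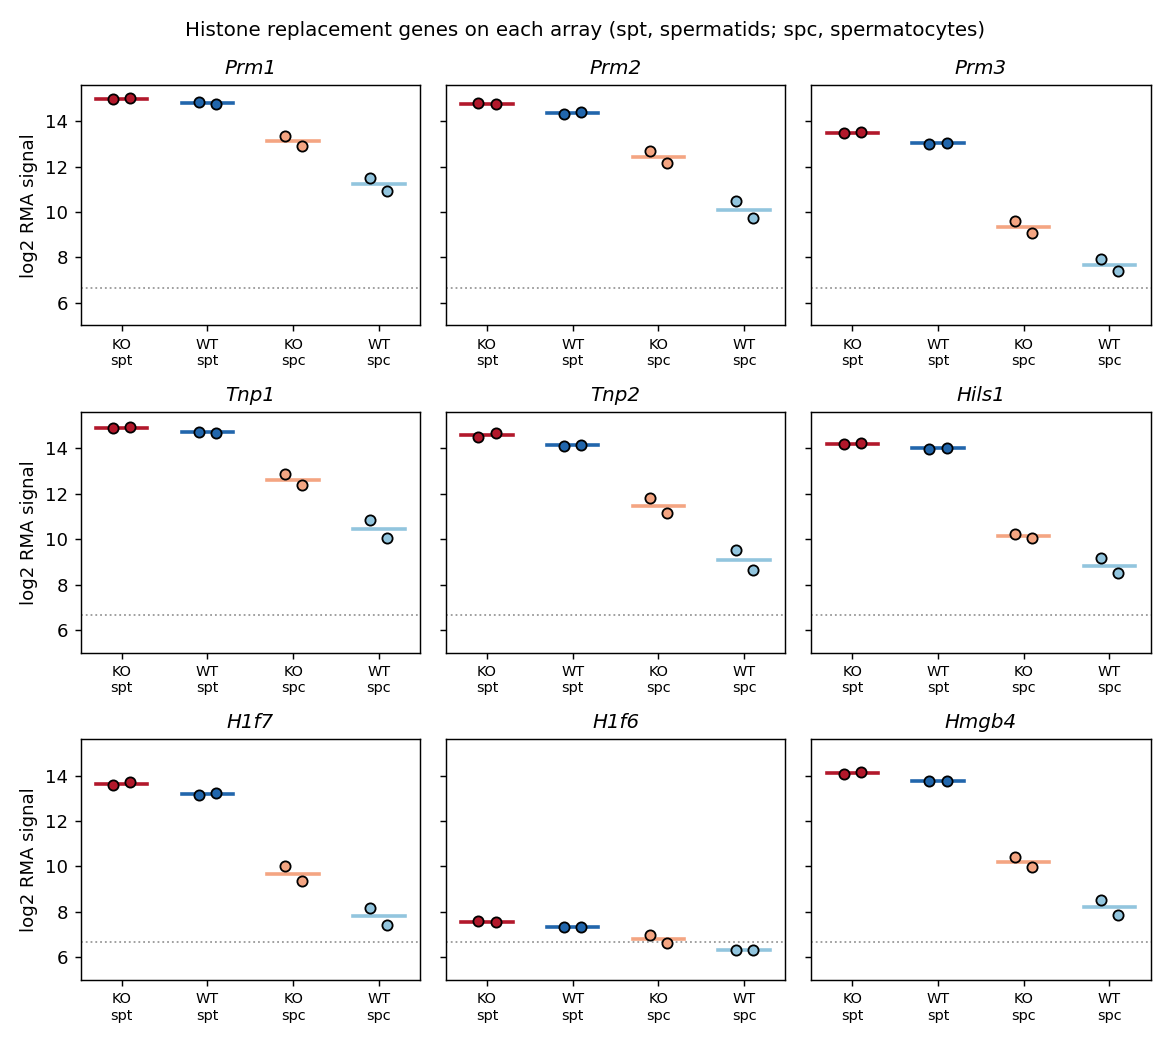
Log2 RMA signal of the 9 measured genes (vertical axis) on the 8 arrays, with KO for Hr6b-/- and WT for wild type, spt for spermatids and spc for spermatocytes. Points are single arrays, bars are means of 2 arrays and the dotted line is a signal of 100. In all 9 panels the wild type spermatocytes are lowest and the knockout spermatids highest.

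Knockout spermatocytes were compared with wild type spermatocytes to ask which transcripts changed with loss of HR6B during meiosis. Of the 9 genes, 8 rose and 0 fell, where 1.18% of all probe sets were called higher, 0.413% lower and 1.59% in either direction. Tnp2 had the widest difference, a log2 fold change of 2.42 (SE 0.28, adjusted p = 0.00321 from limma), which is 5.36-fold. Prm2 rose 5.01-fold (log2 2.32, SE 0.23, adjusted p = 0.00205 from limma) and Tnp1 rose 4.58-fold (log2 2.20, SE 0.23, adjusted p = 0.00229 from limma). Hmgb4 rose 3.97-fold, Prm1 3.77-fold, H1f7 3.65-fold, Prm3 3.17-fold and Hils1 2.48-fold, with adjusted p from 0.00205 to 0.00834 from limma. H1f6 had a log2 fold change of 0.49 (SE 0.14, adjusted p = 0.152 from limma), with both knockout arrays above both wild type arrays. The median of the 9 log2 fold changes was 1.91, against -0.01 over all probe sets.

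Every one of the 13 probe sets had its knockout spermatocyte arrays above its wild type ones, as had 19.7% of all probe sets. The 2 further Prm1 probe sets gave log2 fold changes of 2.06 and 2.01, and the further H1f7 probe set gave 1.59. A further Tnp1 probe set, with signals of only 24.3 to 132 on the 8 arrays, gave 1.09 (adjusted p = 0.0157 from limma), so the size of the Tnp1 change depended on the probe set. With 2 arrays against 2, an exact permutation test cannot give a p below 0.333, and the calls rest on the spread that limma shares across probe sets and groups. When the 4 spermatocyte arrays were fitted alone, the log2 fold changes were the same and 0 of the 9 genes passed, the 8 having adjusted p from 0.0506 to 0.0923 by limma. Without knockout spermatocyte array 1, 6 genes passed, and Hils1 (adjusted p = 0.111 from limma) and H1f7 (adjusted p = 0.0710 from limma) did not.

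Transcripts of other spermatid genes moved with this result. Of 19 spermatid markers outside the 10 genes, 11 rose and 0 fell in knockout spermatocytes, 19 had a positive log2 fold change, and their median was 0.97. Cabs1, a calcium-binding protein of spermatids, had signals of 633 and 448 in knockout spermatocytes, against 123 and 95.1 in wild type spermatocytes. Odf1, of the outer dense fibres of the sperm tail, had 2108 and 1609, against 731 and 469. The summed signal of the 19 markers was 37438 to 40560 in knockout spermatocytes, against 30160 to 34494 in wild type spermatocytes. Most of these sums came from Crisp2, a sperm protein, and Tcp11, which were bright in both groups and had log2 fold changes of 0.05 and 0.11. Crisp2 had 18680 and 18226 in knockout spermatocytes, against 17907 and 17804 in wild type, and Tcp11 had 8908 and 8284, against 9054 and 6964. The sums therefore say little about the other markers. In knockout spermatocytes 18 to 19 of the markers reached a signal of 100, against 11 to 17 in wild type. A larger share of spermatids in the knockout fraction and more RNA per spermatocyte cannot be told apart in these bulk samples.

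Array 1 lay above array 2 for 9 of 9 genes in knockout spermatocytes (median gap 0.48 on the log2 scale) and for 9 of 9 in wild type spermatocytes (median gap 0.68). The spermatid markers were higher on array 1 for 17 of 19 in knockout spermatocytes and for 18 of 19 in wild type, while the median gap over all probe sets was under 0.01 in both groups. In each spermatid group only 2 of 9 genes were higher on array 1. The 15 genes listed as spermatocyte markers had 0 calls in knockout spermatocytes, with a summed signal of 52059 to 57040 against 51506 to 54354 in wild type. Of these, Rec8, Ccna1 and Syce2 were higher in wild type spermatids than in wild type spermatocytes (log2 5.00, 2.49 and 1.59), and without them the sum was 48365 to 53459 against 47927 to 50806. Sertoli cell markers had 0 calls of 15 (6141 to 7817 against 6359 to 7901), Leydig cell markers 0 of 4 (262 to 321 against 259 to 306), and peritubular and immune markers 0 of 7 (376 to 391 against 411 to 417). Of 10 spermatogonial markers, the transcription factor Dmrt1 fell by 0.89 on the log2 scale, and their summed signal was 667 to 788 against 935 to 1066.

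If the difference between knockout and wild type spermatocytes is set against the same probe set in knockout spermatids, it can be compared in size between genes as a share. The difference was 20.4% of the knockout spermatid signal for Prm1, 16.1% for Tnp1, 15.8% for Prm2 and 9.69% for Tnp2. H1f6, whose signal is low in all groups, had 17.2%. These 5 lay above the range of the 19 spermatid markers, 0.39% to 5.78% with a median of 2.64%. Hmgb4 at 4.95%, H1f7 at 4.72%, Prm3 at 3.88% and Hils1 at 3.52% lay within it. Of the 5 genes above the marker range, all but H1f6 had a log2 value above 14 on every spermatid array, as had the markers Odf1, at 5.78%, and Crisp2, at 2.75%. Crisp2 was also bright in spermatocytes, at 14.12 to 14.19 on the log2 scale. It is thus unlike the members, which were well below 14 there. The dim Tnp1 probe set had 26.4%. The part of signal level in these shares was not tested.

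**Figure D2:**
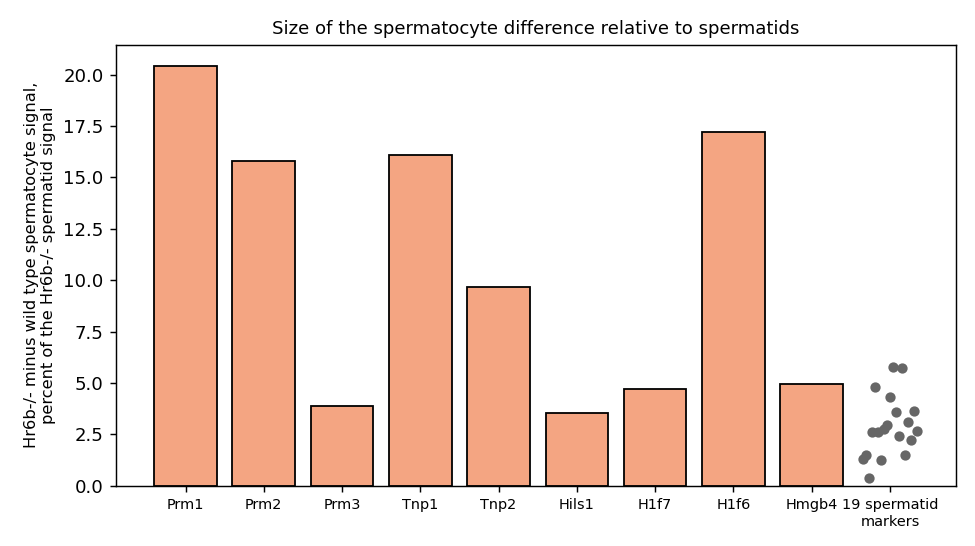
Difference between knockout and wild type spermatocyte signals as a percentage of the mean knockout spermatid signal of the same probe set (vertical axis), for the 9 genes as bars and for the 19 spermatid markers as points. Prm1, H1f6, Tnp1, Prm2 and Tnp2 lie between 9.69% and 20.4%, and no marker is above 5.78%.

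Knockout spermatids were compared with wild type spermatids to ask the same question after meiosis. Here 0 of the 9 genes passed the test, where 14.5% of all probe sets were called (4.83% higher and 9.63% lower), and 1 of 9, Prm3, had an unadjusted p under 0.05. The log2 fold changes ran from 0.19 for Hils1 to 0.47 for Prm3 (adjusted p = 0.164 from limma), with a median of 0.35 against 0.02 over all probe sets. Intervals at 95% were -0.24 to 0.64 for Prm1, -0.10 to 0.94 for Prm2, -0.31 to 0.73 for Tnp1 and -0.17 to 1.07 for Tnp2, so that the interval for Tnp2 reached past 1 log2 unit. All 13 probe sets had both knockout arrays above both wild type arrays, as had 28.1% of all probe sets. The further H1f7 probe set did pass, with 8743 and 8699 in knockout spermatids against 4866 and 5655 in wild type (log2 0.73, SE 0.20, adjusted p = 0.0361 from limma), while the brighter one had 0.47 (adjusted p = 0.268 from limma).

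The scaling of the arrays bears on this comparison. The median of the 17597 expressed probe sets was 0.18 lower on the log2 scale in knockout spermatids than in wild type, and setting these medians equal gave log2 fold changes of 0.38 to 0.65, with Prm3 called (adjusted p = 0.0464 from limma). The share of all calls that were higher in knockout spermatids was 33.4% as deposited and 74.6% with equal medians, and after cyclic loess it was 2476 of 4954 calls. Prm3 was also called when the 4 spermatid arrays were fitted alone (adjusted p = 0.0394 from limma). Of the spermatid markers, 5 rose and 0 fell in knockout spermatids, among them Fscn3, an actin-bundling protein of spermatids, with 3348 and 3887 against 1464 and 1416. Their summed signal was 207384 to 207391 in knockout spermatids, against 166596 to 172856 in wild type. Sertoli cell markers also moved, with 5 of 15 higher and 0 lower and a summed signal of 1643 to 1656 against 1006 to 1103, and 6 to 7 against 3 of them reached a signal of 100. Of 10 spermatogonial markers, Uchl1 (log2 1.41, adjusted p = 0.00441 from limma) and Sohlh1 (log2 1.08, adjusted p = 0.00104 from limma) rose and 0 fell, with a summed signal of 708 to 760 against 568 to 622. Both were dim: Uchl1 had 168 and 165 in knockout spermatids against 46.8 and 84.0 in wild type, and Sohlh1 51.0 and 55.0 against 22.7 and 27.7. Of 7 peritubular and immune markers, the macrophage gene Adgre1 rose (log2 0.61, adjusted p = 0.00562 from limma), with a sum of 713 to 757 against 642 to 649, and Leydig cell markers had 0 calls of 4, with 264 against 214 to 223. Of the 15 listed spermatocyte markers, 1 fell (the meiotic recombination gene Msh5), with a summed signal of 37348 to 39749 against 41742 to 41989, and with equal medians 0 fell and 1 rose (Syce2). The part of these cells in the result was not tested.

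**Figure D3:**
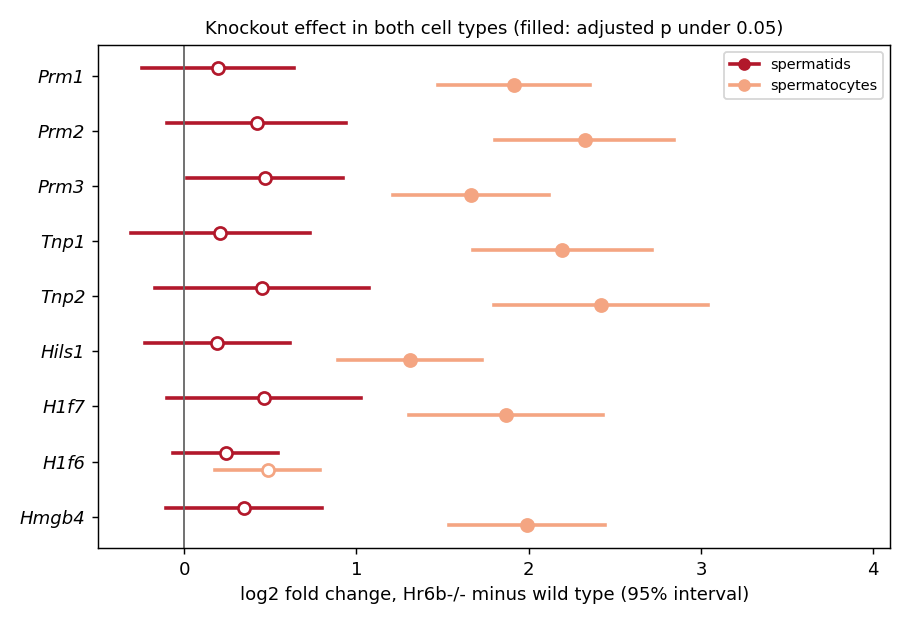
Log2 fold change of Hr6b-/- over wild type (horizontal axis) for the 9 genes, in spermatids and in spermatocytes, with 95% intervals from limma. Filled points passed an adjusted p of 0.05. In spermatocytes 8 genes passed and in spermatids 0, while all 18 values are above 0.

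The difference between these effects was tested directly on the log2 scale, as the knockout effect in spermatids minus that in spermatocytes. It was negative for all 9 genes and passed for 7, where 3.14% of all probe sets were called in this direction and 4.60% in either. The values ran from -1.99 for Tnp1 (SE 0.33, adjusted p = 0.0145 from limma) to -1.12 for Hils1 (SE 0.27, adjusted p = 0.0458 from limma). H1f7 had -1.40 (adjusted p = 0.0553 from limma) and H1f6 -0.24 (adjusted p = 0.510 from limma). This test was less stable than the spermatocyte comparison. It passed for 0 genes without knockout spermatocyte array 1, without knockout spermatid array 1 or without wild type spermatid array 1, for 2 without wild type spermatid array 2, for 4 without knockout spermatid array 2 or after cyclic loess, and for 5 with equal medians, and the values stayed negative under each of these settings. Prm1, Prm2, Tnp1 and Tnp2 were near the top of the range on all 4 spermatid arrays, and Hils1 and Hmgb4 on both knockout spermatid arrays. The part of this position in the difference was not tested.

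Spermatids were also compared with spermatocytes within each genotype. In wild type cells all 9 genes rose, where 26.0% of all probe sets were called higher, from a log2 fold change of 1.02 for H1f6 (2.02-fold) to 5.56 for Hmgb4 (47.3-fold), with a median of 5.07. In knockout cells all 9 rose as well, where 34.2% of all probe sets were called higher, from 0.77 for H1f6 to 4.16 for Prm3 (17.9-fold), with a median of 3.10. The genes differed in how much of the wild type rise was seen in the knockout. Prm1 was 3.63-fold higher in knockout spermatids than in knockout spermatocytes, against 11.9-fold in wild type cells, and Tnp1 was 4.90-fold higher against 19.4-fold. Prm2 was 5.14-fold higher against 19.2-fold, and Tnp2 8.59-fold against 33.6-fold. Hils1, at 16.7-fold against 36.2-fold, and H1f7, at 15.7-fold against 41.5-fold, had wider rises in both genotypes. The test of the difference between genotypes is the one given above.

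Values near the top of the range of an array can be compressed, which would understate folds. The highest log2 value of an array was 14.99 to 15.04, and 52 to 57 probe sets per array reached 14. On the knockout spermatid arrays 6 of the 9 genes (Prm1, Prm2, Tnp1, Tnp2, Hils1 and Hmgb4) were at 14 or above on both arrays, and on the wild type spermatid arrays 4 were (Prm1, Prm2, Tnp1 and Tnp2). Prm1 was the brightest of all 45037 probe sets on both knockout spermatid arrays and ranked 3 and 5 on the wild type ones. Tnp1 ranked 3 on both knockout spermatid arrays and 7 on both wild type ones. Prm3 and H1f7 ranked lower, at 130 to 452 over the 4 spermatid arrays, and H1f6 at 10488 to 12211. On the spermatocyte arrays 0 of the 9 reached 14. RMA gives all arrays the same distribution, so that the top values are alike by construction, and scanner saturation was not analysed here. With H1f6 left aside, the wild type rise was smaller for the 4 genes nearest the top than for the others. It was 3.58 to 5.07 on the log2 scale for Prm1, Prm2, Tnp1 and Tnp2. These 4 also had the highest wild type spermatocyte means, from 560 to 2445, against 206 to 468 for Prm3, H1f7, Hmgb4 and Hils1. Hils1 and Hmgb4 had 5.18 and 5.56, and Prm3 and H1f7 had 5.36 and 5.38. H1f6, which is dim and farthest from the top, had 1.02. The part of compression, or of the spermatocyte level, in this order was not tested.

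**Figure D4:**
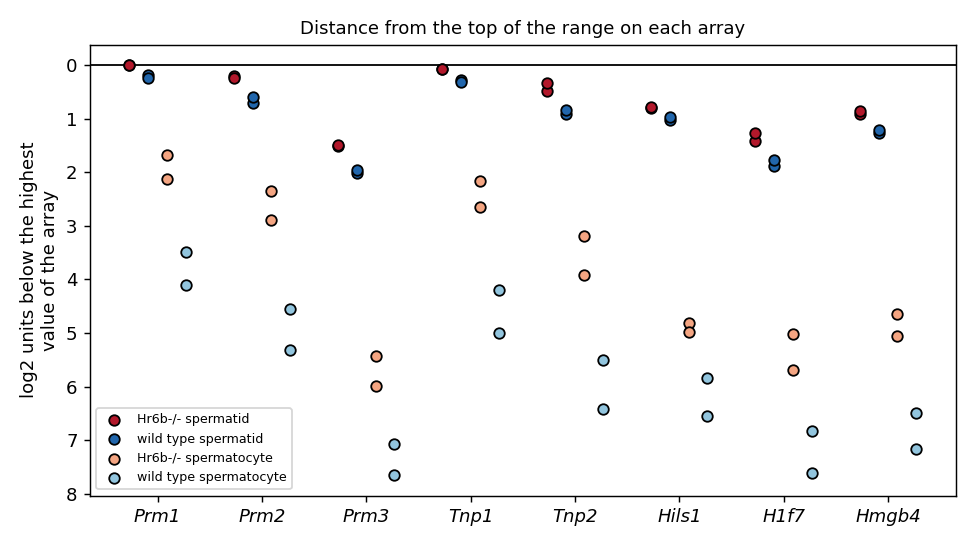
Distance of 8 genes below the highest log2 value of each array (vertical axis, log2 units, with 0 at the top), by group, each point being 1 array. Prm1 lies at 0 on both knockout spermatid arrays, and Prm3 and H1f7 lie more than 1 unit below the top on all spermatid arrays. H1f6 is left out.

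Factors that act with these proteins were counted next. For this list and the regulators and histone variants that follow, the shares over all probe sets as deposited serve for comparison. They were 1.18% called higher and 0.413% lower in knockout spermatocytes, and 4.83% higher and 9.63% lower in knockout spermatids. Of 23 histone eviction factors, 2 rose and 0 fell in knockout spermatocytes, with a median log2 fold change of 0.04. Tssk6, a testis kinase needed for the replacement of histones, had signals of 411 and 262 in knockout spermatocytes, against 93.2 and 91.5 in wild type (log2 1.83, adjusted p = 0.00205 from limma). Cdyl, a chromodomain protein that affects histone crotonylation in spermatids, had 256 and 216, against 111 and 88.7 (log2 1.25, adjusted p = 0.00306 from limma). Both also rose in knockout spermatids, where Tssk6 had 6577 and 6916 against 2525 and 2814, and Cdyl had 6408 and 7000 against 4572 and 4559. In spermatids 3 of the 23 rose and 5 fell, among them the poly(ADP-ribose) polymerases Parp2, with 203 and 202 against 346 and 372, and Parp1, with 781 and 811 against 1282 and 1158. With equal medians 3 fell (Epc1, Parp1 and Parp2), and after cyclic loess 1 did (Parp2).

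Of 15 regulators of protamine and transition protein expression, 2 rose and 0 fell in knockout spermatocytes. Fhl5, also called ACT, a partner of CREM, had 422 and 339 in knockout spermatocytes, against 199 and 116 in wild type (log2 1.32, adjusted p = 0.0178 from limma). Kif17, a kinesin that moves ACT out of the nucleus, had 226 and 214, against 135 and 125 (log2 0.76, adjusted p = 0.0101 from limma). In spermatids Kif17 rose and the RNA-binding protein gene Elavl1 fell, with 85.5 and 110 in knockout spermatids against 149 and 160 in wild type. Elavl1 was still called with equal medians but not after cyclic loess.

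Among 17 other histone variants, 11 were measured. H2al2a, a histone H2A variant that loads with transition proteins, was the only one called in spermatocytes, with 476 and 314 in the knockout against 108 and 75.7 in wild type (log2 2.10, adjusted p = 0.00205 from limma). It rose in spermatids too, with 8517 and 10042 in the knockout against 3567 and 3388 in wild type (log2 1.41, adjusted p = 0.00255 from limma). Of the somatic variants, H2az1 fell by 0.62 and Macroh2a1 fell by 0.57 on the log2 scale in knockout spermatids. Both were still called with equal medians, and neither was called after cyclic loess. Hmgb2 and Hmgb3, the other HMG box genes measured, had 0 calls in either knockout comparison as deposited (Hmgb3 was called higher in knockout spermatids with equal medians), and both were lower in spermatids than in spermatocytes in each genotype, opposite in direction to Hmgb4.

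Genes beside the cluster on chromosome 16 were read for comparison. In the order Dexi, Clec16a, Socs1, Tnp2, Prm3, Prm2, Prm1, Rmi2, Litaf, Snn, all 4 cluster genes rose in knockout spermatocytes, and 0 of the other 6 were called, with log2 fold changes of -0.43 to 0.22. Of these 6, 4 had mean signals under 100 in both spermatocyte groups (Socs1, Rmi2, Litaf and Snn). Dexi rose in knockout spermatids, with 289 ± 26.1 against 179 ± 3.83 in wild type (SD, n = 2 each, log2 0.69, adjusted p = 0.00385 from limma).

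The genes whose pattern over the 8 arrays lay nearest to the mean pattern of Prm1, Prm2, Tnp1 and Tnp2, by root mean square difference of centred log2 values among 18185 genes outside the 10, were Osbpl10 (0.40), Gsg1 (0.42), Mex3d (0.44), Hapln2 (0.45) and 1810012K16Rik (0.46). The other 5 measured members lay farther from this pattern, at 0.68 for H1f7 to 1.38 for H1f6. The named genes were chosen on these arrays, so their values are a description. Gsg1 had 18733 and 17966 in knockout spermatids, 12579 and 13734 in wild type spermatids, 1926 and 1372 in knockout spermatocytes, and 646 and 393 in wild type spermatocytes. Osbpl10 had 2387 and 2324 in knockout spermatids, 2208 and 2357 in wild type spermatids, 315 and 287 in knockout spermatocytes, and 132 and 114 in wild type spermatocytes.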

How the data were processed

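The authors hybridised RNA of 8 cell fractions to Mouse Genome 430 2.0 arrays and deposited log2 values of the 45101 probe sets, normalised by RMA (background correction, quantile normalisation and summary over probes), without replicates pooled. These deposited log2 values were used unchanged, which makes the distribution of all arrays alike. After removal of 64 control probe sets, 1 linear model with a mean per group was fitted to the 8 arrays (limma 3.58.1 in R 4.3.3, empirical Bayes, 4 residual and 5.85 prior degrees of freedom), with Benjamini-Hochberg adjustment over 45037 probe sets and calls at 0.05. Probe sets were named from the platform annotation, with symbols updated through RefSeq: 34945 had 1 gene, 932 several and 9160 none. Every probe set of the members was reported, with the brightest single-gene probe set standing for a gene. From other lists all counts were given, and most genes named were among the 3 with the lowest adjusted p of a list in a knockout comparison. Crisp2, Tcp11, Ccna1 and Epc1 were named outside this rule, to describe a sum, a signal level or a call. The 5 genes of nearest pattern were those closest to the mean profile of Prm1, Prm2, Tnp1 and Tnp2. Members and lists were chosen with earlier results of these data known. The procedure was tested on simulated data. Alternatives were each array left out, each cell type alone, replicate number as a block, cyclic loess, equal medians, a signal filter of 100 on at least 4 arrays, a variance trend, and the mean of the probe sets of a gene. The number of arrays limits the precision. Between groups, the deviations of same-numbered arrays correlated at -0.13 to 0.14 over all probe sets. These correlations cannot decide whether a replicate number marks a shared preparation, which the labels do not say.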

Additional observations from a re-analysis of the deposited data

Results flagged for a closer look

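For 7 genes the knockout effect differed between the cell types by the interaction test, as spermatid minus spermatocyte effect on the log2 scale. The differences were -1.72 for Prm1, -1.90 for Prm2, -1.20 for Prm3, -1.99 for Tnp1, -1.97 for Tnp2, -1.12 for Hils1 and -1.64 for Hmgb4, with adjusted p from 0.0140 to 0.0467 from limma. The order depends on the scale. In mean linear signal, the gap between knockout and wild type was wider in spermatids for Prm2, Prm3, Tnp2, Hils1 and Hmgb4. It was wider in spermatocytes for Prm1 and Tnp1. For each of the 7, signals were higher in the knockout than in wild type on every array of either cell type. The same held for 19.7% of all probe sets in spermatocytes and for 28.1% in spermatids. In spermatids 0 of the 7 were called. Prm1, Prm2, Tnp1 and Tnp2 were at a log2 value of 14 or above on all 4 spermatid arrays. Hils1 and Hmgb4 were at 14 or above on both knockout spermatid arrays. The part of the top of the range in the values of these genes was not tested.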

How the results depend on the processing

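No result reversed. The 9 genes kept their direction under all settings in all 5 comparisons. In spermatocytes 134 of 144 gene values kept their call and 10 lost it, and in spermatids 142 of 144 kept it and 2 gained it. Of 135 values for the difference between cell types 93 kept their side, 37 lost the call and 5 gained it. Both comparisons of spermatids with spermatocytes kept 135 of 135.

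With 1 array left out at a time, probe sets called numbered 119 to 999 in spermatocytes, 2588 to 7268 in spermatids and 228 to 2197 for the difference between cell types, and genes called in that test 0 to 8. With the 4 arrays of a cell type alone, 80 probe sets and 0 of the 9 genes were called in spermatocytes and 1 of the 9 in spermatids. Cyclic loess left 1197 probe sets and 4 genes in the test of the difference, equal medians gave 1 gene in spermatids, and the variance trend gave 3325 probe sets for the difference. Under the signal filter, which tests fewer probe sets, 14898 were called between wild type spermatids and spermatocytes and 15303 in the knockout. With the replicate block 686 probe sets were called in spermatocytes, 6090 in spermatids and 1725 for the difference, with 8, 0 and 8 of the 9 genes. A crossed pairing in wild type spermatids, added after the data were seen, gave 781, 6892 and 2396 probe sets. The causes were not tested.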
